A study of Mus musculus with 24 samples.

Results

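The spliceosome is built from small nuclear ribonucleoproteins (snRNPs), and 42 genes for the core proteins of these particles and their LSm relatives were followed in mouse cortex with and without Fmr1. The genes were taken by name: a probe set counted where the array annotation gave 1 gene symbol and that symbol was Snrp, Lsm, Sf3a, Sf3b or Prpf followed by its number or letter. This rule gave 103 probe sets of 42 genes, out of 45037 probe sets on the array and 18193 genes with a probe set of 1 symbol. The rule itself uses no measured value, but the family was picked with earlier results of these data known. A further 10 probe sets carried several symbols and were left out, so that Snrpd1, Snrpd2, Snrpa and Lsm5 were not among the members.

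The tissue was the cerebral cortex of male mice of the FVB strain at postnatal day 7, with the white matter removed. Mice were either wild type (WT) or null for Fmr1 (Fmr1 KO), the gene of FMRP, an RNA-binding protein found on polyribosomes whose loss causes fragile X syndrome. The labels name no promoter or driver that would limit the null allele to some cell types. WT and null mice were littermates, and 2 mice of a genotype were pooled for each sucrose gradient, so a replicate was a pool of animals. All lysates were made in the presence of cycloheximide, which holds ribosomes on mRNA. From each of 6 lysates per genotype, 20% was kept as total RNA before the gradient, and polyribosomal RNA was pooled from gradient fractions 10 to 13 of 16, which hold mRNAs on 6 or more ribosomes. The 4 groups were thus WT total, WT polyribosomal, Fmr1 KO total and Fmr1 KO polyribosomal RNA, with 6 Affymetrix Mouse 430 2.0 arrays each. Total RNA here is that of the cleared lysate, and an mRNA on fewer ribosomes is in it but not in the polyribosomal pool.

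The spliceosome removes introns from pre-mRNA in the nucleus. The U1, U2, U4 and U5 snRNAs each carry a ring of Sm proteins, which is assembled in the cytoplasm by the SMN complex, and each snRNP adds proteins of its own, such as the SF3A and SF3B complexes of U2. U6 snRNA carries instead a ring of LSm proteins. A second LSm ring, with Lsm1 in the place of Lsm8, works in the cytoplasm, where it binds the ends of mRNAs whose poly(A) tail is worn down and promotes decapping. The Prpf genes are the mouse counterparts of yeast PRP genes, most of them parts of the U4/U6.U5 tri-snRNP or of complexes that rebuild the spliceosome as it works. Most Sm and LSm proteins are small, single-fold proteins, while several SF3 and PRPF proteins are large scaffolds. Neurons splice many transcripts in their own way, and SMN loss, which impairs Sm ring assembly, causes a motor neuron disease.

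The promoters of these genes were searched for motifs, which the choice by name did not use. RefSeq (GRCm38.p6) gave a promoter window for 35 of the 42 genes, 44 windows in all, and the 250 bases before each start were searched on both strands. The motif CCGGAAG, the core of an ETS-type site, was in 13 of the 44 windows (29.5%), against 6.91% of the 32851 windows of all genes, so most member windows lacked it. It was in 8 of the 10 windows of U2 genes (80.0%), which belong to 9 genes. These were at Sf3a1, Sf3a2, Sf3a3, Sf3b2, Sf3b3, Sf3b6 and Snrpb2. The 2 windows of Sf3b2 cover nearly the same bases, so they are not separate matches. The motif was in none of the 7 windows of LSm ring genes, which belong to 5 genes. The windows below are of the pair of members with the largest falls in WT polyribosomal RNA and of the pair of U2 members with the largest rises, among those with a window. Each is the 250 bases before the start, 5′ to 3′, and capitals mark a motif match, CCGGAAG or CCAAT in either orientation.
Lsm3, chr6:91515785-91516034, plus strand: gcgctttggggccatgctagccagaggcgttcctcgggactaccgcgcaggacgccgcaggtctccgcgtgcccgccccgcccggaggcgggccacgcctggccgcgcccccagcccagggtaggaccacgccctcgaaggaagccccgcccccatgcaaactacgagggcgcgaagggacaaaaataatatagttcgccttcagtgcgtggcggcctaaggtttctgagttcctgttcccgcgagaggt
Snrpg, chr6:86371290-86371539, plus strand: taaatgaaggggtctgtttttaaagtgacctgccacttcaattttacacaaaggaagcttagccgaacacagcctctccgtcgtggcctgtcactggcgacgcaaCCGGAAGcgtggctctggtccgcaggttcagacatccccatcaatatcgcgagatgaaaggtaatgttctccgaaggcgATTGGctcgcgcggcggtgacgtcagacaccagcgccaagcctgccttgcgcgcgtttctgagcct
Sf3a2, chr10:80798485-80798734, plus strand: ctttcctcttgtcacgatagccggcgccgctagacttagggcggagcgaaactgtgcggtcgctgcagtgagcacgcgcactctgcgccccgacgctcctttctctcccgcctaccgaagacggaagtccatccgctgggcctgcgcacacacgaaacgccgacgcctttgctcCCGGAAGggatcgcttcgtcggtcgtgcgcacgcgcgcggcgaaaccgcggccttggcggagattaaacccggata
Snrpb2, chr2:143062819-143063068, plus strand: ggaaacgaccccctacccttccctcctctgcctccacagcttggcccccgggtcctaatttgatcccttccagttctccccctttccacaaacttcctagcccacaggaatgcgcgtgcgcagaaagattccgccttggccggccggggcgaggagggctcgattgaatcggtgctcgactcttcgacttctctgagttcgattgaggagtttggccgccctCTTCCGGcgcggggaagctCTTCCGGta
Lsm3 had none of the motifs searched, Snrpg held 1 ETS-type and 1 CCAAT match, Sf3a2 held 1 ETS-type match, and Snrpb2 held ETS-type matches close to the start. The CCAAT box was in 40.9% of member windows and 33.8% of all windows, and TATAAA in 4.55% and 12.4%. GCCATCTT (YY1-type) was in 2.27% and 1.56%. None of these motifs is part of another, although matches may overlap at their ends. A C at the annotated start followed by 4 pyrimidines, the start of a terminal oligopyrimidine tract, was in 0 of 44 member windows and in 2.51% of all windows. A match is a description of the letters and says nothing of binding.

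All 42 genes were measured well enough to be tested in every comparison. Testing a probe set required a log2 signal of 4 or more in 6 or more of the arrays in the comparison, and each gene is given by its brightest probe set, judged by the mean of all 24 arrays. Of the 42, 41 were at 4 or more in all 24 arrays, and Prpf3 was the exception, at 3.88 in 1 Fmr1 KO polyribosomal array. Of the 103 member probe sets, 20 were below 4 in all arrays. Array medians lay between 3.17 and 3.20. The arrays that stood farthest from their group were WT polyribosomal replicate 4 and Fmr1 KO polyribosomal replicate 5, each with a mean Pearson's r of 0.983 with the other arrays of its group. Fmr1 itself was at a log2 signal of 9.66 ± 0.18 (SD, n = 6) in WT total RNA and 6.38 ± 0.16 (SD, n = 6) in Fmr1 KO total RNA, with a two-sided exact permutation p of 0.00216, the smallest that splits of 6 against 6 arrays allow. Markers of cortical excitatory neurons (6 of 6 measured), interneurons (5 of 5), astrocytes (4 of 4) and the oligodendrocyte lineage (4 of 4) were at 4 or more in every array. Of 8 markers of other brain regions, 6 were below 4 in every array. The other 2, Cbln1 (group means of 6.07 to 6.35) and Drd1 (6.93 to 7.08), were at 4 or more in every array. Of the microglial markers 1 of 4, and of the endothelial markers 0 of 3, were at 4 or more in every array. The choroid plexus list held Ttr, Kl and Folr1, and Kl and Folr1 were below 4 in all arrays. Its summed level thus rests on Ttr. This level ranged from 4.64 to 12.2 among WT polyribosomal arrays and from 4.48 to 11.4 among WT total arrays. Its ranges in Fmr1 KO arrays were 4.23 to 12.1 and 4.19 to 11.3. The part of such tissue in the results was not tested.

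The first comparison asked which of these mRNAs were richer or poorer on heavy polyribosomes than in the lysate they came from. In WT, 16 of the 42 genes were higher and 18 lower in polyribosomal than in total RNA, and 8 were not called (limma with the lysate as a block, Benjamini-Hochberg adjusted p under 0.05). Among all 9725 genes tested, 37.5% were higher and 28.4% lower. The members thus included a larger share of lower calls and about the same share of higher calls as the background. Their median difference was -0.02 on the log2 scale against 0.09 for all genes, and their median absolute difference 0.68 against 0.37. In Fmr1 KO, 15 were higher and 18 lower, with a background of 38.7% higher and 28.2% lower. Their median difference was 0.05 there, against 0.09 for all genes. Every gene had the same sign in both genotypes, 15 were higher in both, 18 were lower in both, and none was called in opposite directions. The sign was not firm for Prpf3, Snrpn, Lsm14b and Sf3b1, which were not called and turned under some settings. The share of all genes called alike in both genotypes was not counted, so these counts do not set the members apart. Across the 42 genes the differences of WT and Fmr1 KO had a Pearson's r of 0.989 and a Spearman's rho of 0.980, a description across genes, which are not independent replicates; over the 9647 genes tested in both the r was 0.979. In WT the 2 RNA kinds did not overlap for 14 higher and 13 lower members, against 21.8% and 18.3% of all genes. In Fmr1 KO they did not overlap for 15 higher and 12 lower members, against 24.1% and 18.1%.

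**Figure D1:**
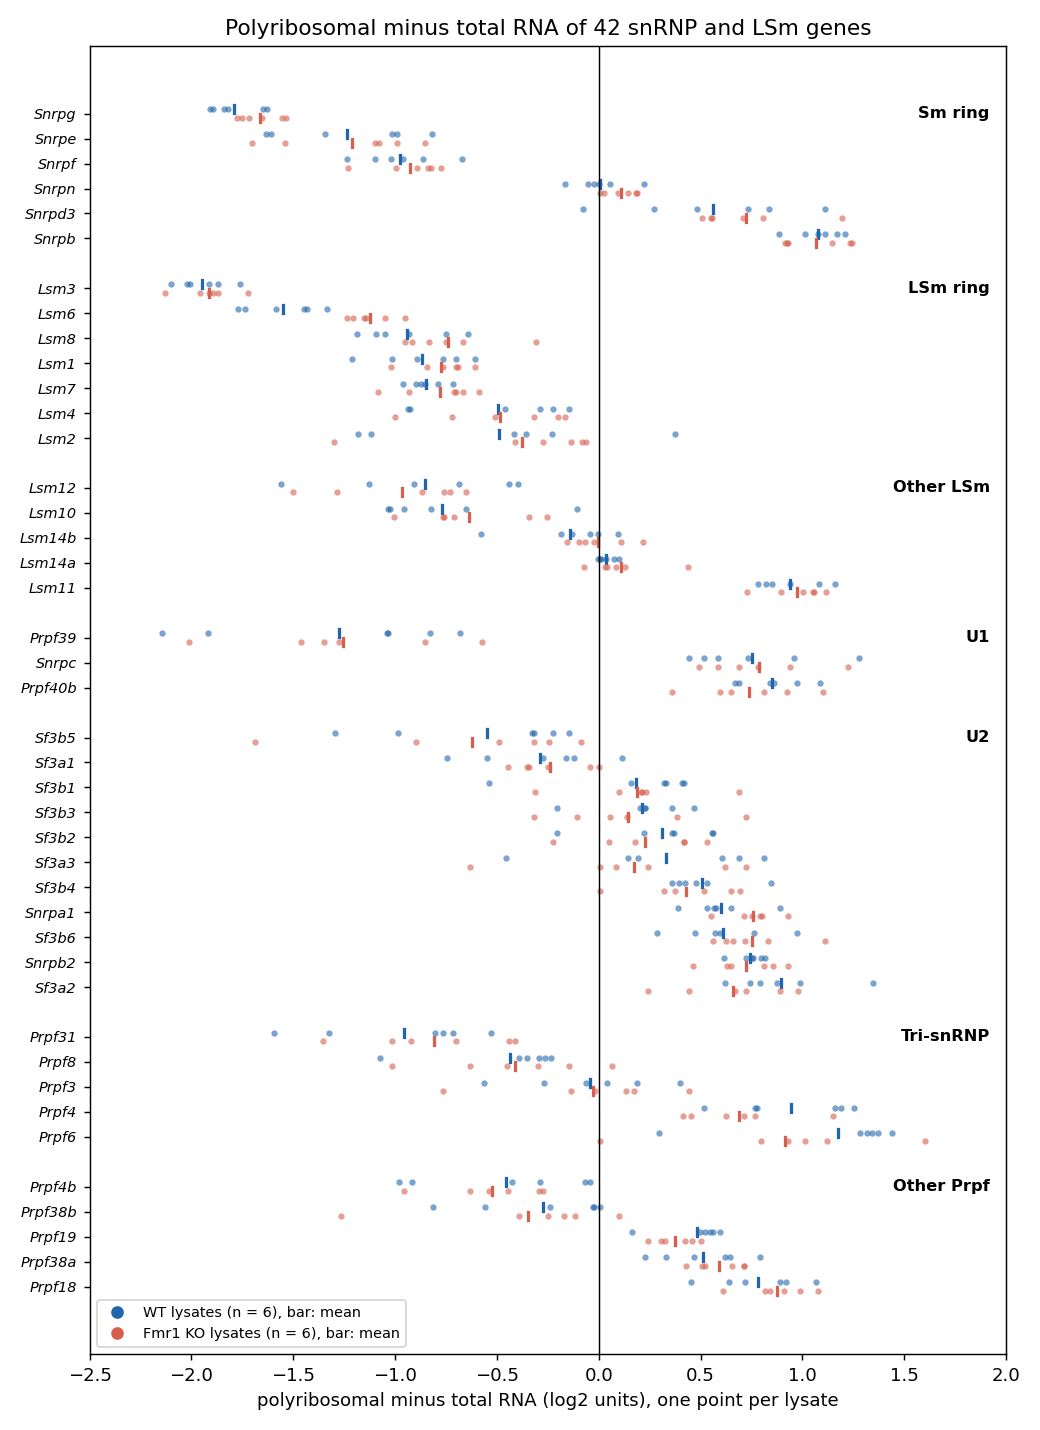
Polyribosomal minus total log2 signal of the brightest probe set of each of the 42 genes, 1 point per lysate (6 WT in blue, 6 Fmr1 KO in red) and a bar at each mean, grouped by role. All 7 LSm ring genes had means to the left of 0 in both genotypes, while the Sm ring ran from -1.79 for Snrpg to 1.08 for Snrpb in WT.

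The Sm ring genes split between falls and rises. Of the 6 measured, Snrpg, Snrpe and Snrpf were lower, Snrpd3 and Snrpb higher, and Snrpn not called, in WT and in Fmr1 KO alike. Of all genes tested, 37.5% were higher and 28.4% lower in WT, and 38.7% and 28.2% in Fmr1 KO. Snrpg, for SmG, had a log2 signal of 11.38 to 11.68 in WT total RNA (median 11.56) and 9.69 to 9.79 in WT polyribosomal RNA (median 9.74). The groups did not overlap, and each of the 6 WT lysates was lower, with lysate differences of -1.91 to -1.63 on the log2 scale. The difference was -1.79 (SE 0.08, adjusted p = 2.63e-08), a 3.45-fold lower signal. In Fmr1 KO, Snrpg was at 11.42 to 11.69 in total RNA (median 11.50) and 9.71 to 10.03 in polyribosomal RNA (median 9.85), again without overlap, and the difference was -1.66 (SE 0.08, adjusted p = 2.29e-08). The partners of SmG in the ring's E-F-G subcomplex stood below 0 as well. Snrpe was at -1.23 (SE 0.12) in WT and -1.21 (SE 0.11) in Fmr1 KO. The only tested probe set of Snrpe carries a suffix that marks possible matches to other transcripts. Snrpf was at -0.97 (SE 0.09) and -0.93 (SE 0.09).

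Snrpb, which encodes SmB and its splice form SmB′, was the highest of the ring. Its signal was 9.99 to 10.44 in WT total RNA (median 10.20) and 11.09 to 11.45 in WT polyribosomal RNA (median 11.26). No polyribosomal array was as low as any total array, and the difference was 1.08 (SE 0.08, adjusted p = 8.23e-07), or 2.11-fold. The Fmr1 KO arrays read 10.06 to 10.42 (median 10.23) in total RNA and 10.99 to 11.57 (median 11.25) in polyribosomal RNA, a difference of 1.06 (SE 0.08, adjusted p = 9.55e-07). The brightest probe set of Snrpb carries a cross-match suffix too. Its other tested probe set was higher as well, at 1.09 in WT and 1.13 in Fmr1 KO. Snrpn encodes SmN, a near-copy of SmB made mainly in neurons, from an imprinted locus. Its 1 probe set of a single symbol was at 7.56 to 7.71 in WT total RNA (median 7.66) and 7.54 to 7.88 in WT polyribosomal RNA (median 7.61), with the groups overlapping. The difference was 0.01 (SE 0.08, adjusted p = 0.949) in WT and 0.11 (SE 0.07, adjusted p = 0.222) in Fmr1 KO. In Fmr1 KO its signal was 7.46 to 7.73 (median 7.64) in total RNA and 7.56 to 7.86 (median 7.69) in polyribosomal RNA. Snrpd3, for the SmD3 subunit that pairs with SmB, was at 0.56 (SE 0.14, adjusted p = 0.00389) in WT and 0.72 (SE 0.10, adjusted p = 6.64e-05) in Fmr1 KO. Its other tested probe sets in WT were at 0.23 and 0.26 and were not called, and with the median over its probe sets as its value the WT difference was 0.26 (adjusted p = 0.181).

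The LSm ring was lower as a whole. All 7 measured genes of the nuclear and cytoplasmic rings were lower in polyribosomal RNA in both genotypes. Of all genes tested, 28.4% were lower in WT and 28.2% in Fmr1 KO. The median difference of the 7 genes was -0.87 in WT and -0.77 in Fmr1 KO. Lsm3, a subunit shared by both rings, had the largest fall of all members. Its signal was 7.73 to 8.15 in WT total RNA (median 7.89) and 5.72 to 6.29 in WT polyribosomal RNA (median 6.00). The groups lay far apart, and the lysate differences ran from -2.10 to -1.76. The difference was -1.95 (SE 0.08, adjusted p = 1.68e-08), a 3.85-fold lower signal. In Fmr1 KO, Lsm3 was at 7.58 to 8.31 (median 7.75) in total RNA and 5.71 to 6.18 (median 5.89) in polyribosomal RNA, a difference of -1.91 (SE 0.08, adjusted p = 1.30e-08).

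Lsm6, also in both rings, followed. Its signal was 8.76 to 9.31 in WT total RNA (median 9.11) and 7.34 to 7.68 in WT polyribosomal RNA (median 7.57), without overlap. The WT difference was -1.55 (SE 0.09, adjusted p = 1.19e-07). The Fmr1 KO signal was 8.61 to 9.14 (median 8.94) in total RNA and 7.46 to 8.05 (median 7.81) in polyribosomal RNA, a difference of -1.12 (SE 0.08, adjusted p = 3.63e-07). The subunits that set the rings apart were both lower. Lsm8, of the nuclear U6 ring, was at -0.94 (SE 0.09) in WT and -0.74 (SE 0.10) in Fmr1 KO, and its other tested probe set was lower too, at -1.33 and -0.90. Lsm1, of the cytoplasmic decapping ring, was at -0.87 (SE 0.10) in WT and -0.77 (SE 0.08) in Fmr1 KO. Lsm7 was at -0.85 in WT, Lsm4 at -0.50 and Lsm2 at -0.49, and in Fmr1 KO these were at -0.78, -0.49 and -0.38. Lsm2 was the least firm of the 7, lower in 5 of 6 WT lysates, with an adjusted p of 0.0286 in WT and 0.0387 in Fmr1 KO. Its WT call was lost without WT replicate 1 (-0.36, adjusted p = 0.104), without replicate 3 (-0.50, adjusted p = 0.0507) and without replicate 5 (-0.35, adjusted p = 0.0850). Its Fmr1 KO call was lost without Fmr1 KO replicate 1 (-0.19, adjusted p = 0.0743), without replicate 2 (-0.40, adjusted p = 0.0501) and without replicate 6 (-0.37, adjusted p = 0.0793). With no filter on dim probe sets, Lsm2 was called in neither genotype (adjusted p = 0.0590 in WT and 0.0708 in Fmr1 KO), and quantile normalization ended its Fmr1 KO call (adjusted p = 0.0532).

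**Figure D2:**
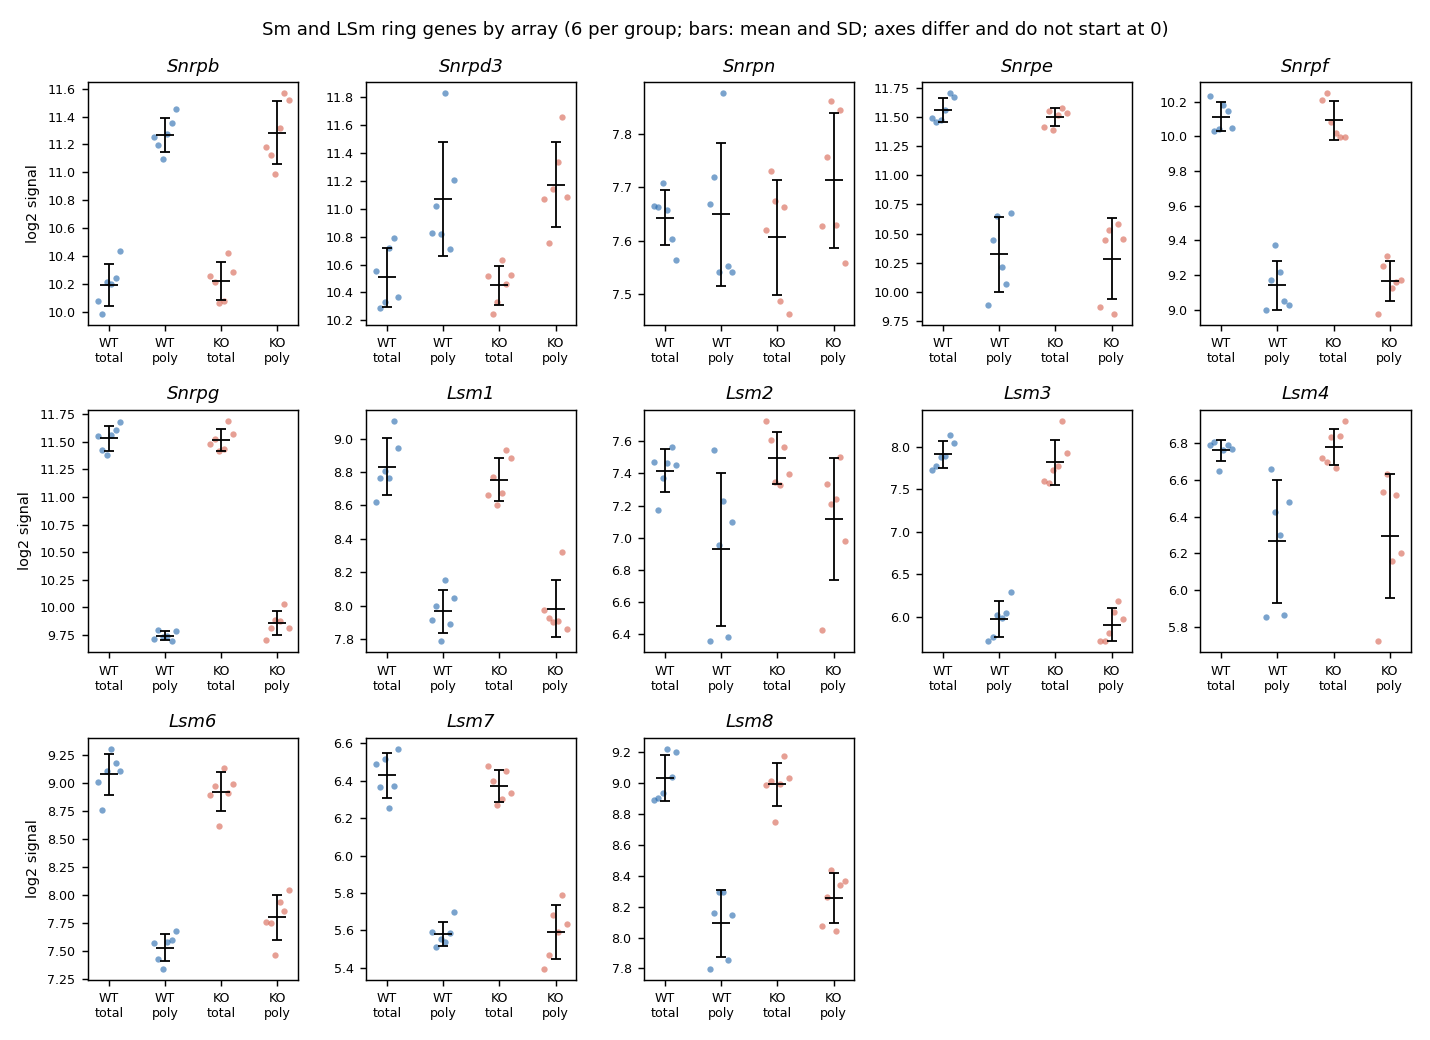
Log2 signal of the brightest probe set of each Sm ring and LSm ring gene, 1 point per array, in 6 arrays of each of the 4 groups, with the mean and SD as bars. Each panel has its own axis, which does not start at 0, so heights are not comparable between panels; Snrpb and Snrpd3 were higher in polyribosomal RNA, Snrpn was not called, and the other 10 genes were lower.

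The remaining LSm genes went separate ways. Lsm11, which with Lsm10 replaces a pair of Sm subunits in the U7 snRNP that trims histone mRNAs, was higher in polyribosomal RNA. Its signal was 5.67 to 5.86 in WT total RNA (median 5.79) and 6.49 to 7.02 in WT polyribosomal RNA (median 6.67), a difference of 0.94 (SE 0.09, adjusted p = 3.50e-06). In Fmr1 KO its groups were at 5.67 ± 0.23 (SD, n = 6; median 5.60) and 6.64 ± 0.32 (SD, n = 6; median 6.68), without overlap, and the difference was 0.98 (SE 0.08, adjusted p = 1.48e-06). Its U7 partner Lsm10 was lower, at -0.77 (SE 0.12) in WT and -0.64 (SE 0.11) in Fmr1 KO. Lsm12, an LSm-domain protein outside the rings, was lower too. Its signal was 5.31 to 5.89 in WT total RNA (median 5.70) and 4.32 to 5.29 in WT polyribosomal RNA (median 4.75), a difference of -0.85 (SE 0.14, adjusted p = 2.89e-04). Fmr1 KO arrays were at 5.39 to 5.85 (median 5.68) and 4.35 to 5.05 (median 4.70), a difference of -0.97 (SE 0.12, adjusted p = 2.47e-05). Lsm14a and Lsm14b, of cytoplasmic P-bodies, had values of 0.04 and -0.14 in WT and were not called. Of the 3 tested Lsm14a probe sets, a dimmer one was higher in both genotypes, at 0.32 in WT and 0.40 in Fmr1 KO, and another was higher in Fmr1 KO at 0.33. With the median over its probe sets, or without probe sets marked for cross-matches, Lsm14a was higher in both genotypes, at 0.32 and 0.40.

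Of the U1 genes, which act in the recognition of the 5′ splice site, Snrpc and Prpf40b were higher and Prpf39 lower in both genotypes. Prpf39, an alternative splicing factor that joins U1, was at 7.82 to 8.61 in WT total RNA (median 8.38) and 6.12 to 7.76 in WT polyribosomal RNA (median 7.24). The WT polyribosomal arrays spread widely but stayed below the total arrays, and the lysate differences ran from -2.14 to -0.68. The difference was -1.27 (SE 0.18, adjusted p = 9.19e-05) in WT. In Fmr1 KO, with 7.87 to 8.53 (median 8.34) in total and 6.52 to 7.56 (median 6.97) in polyribosomal RNA, it was -1.25 (SE 0.15, adjusted p = 2.52e-05). Prpf40b was at 4.71 to 5.18 in WT total RNA (median 4.89) and 5.55 to 5.94 in WT polyribosomal RNA (median 5.77), and the difference was 0.85 (SE 0.09, adjusted p = 7.78e-06). Its Fmr1 KO signal was 4.76 to 5.18 (median 4.93) in total and 5.29 to 5.93 (median 5.67) in polyribosomal RNA, a difference of 0.74 (SE 0.10, adjusted p = 5.80e-05). Snrpc, for a U1 protein that helps hold the 5′ splice site, was at 0.75 (SE 0.11) in WT and 0.78 (SE 0.10) in Fmr1 KO.

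More U2 genes were higher than lower. Of 11 genes, 6 were higher and 2 lower in WT, against 37.5% and 28.4% of all genes, with a median of 0.33. In Fmr1 KO 5 were higher and 2 lower, against 38.7% and 28.2%, with a median of 0.23, so the share of higher calls was near the background there. Sf3a2, a subunit of the SF3A complex that contacts the branch site region, had the largest rise of them in WT. Its only tested probe set carries a suffix that marks possible matches to other transcripts. Its signal was 5.08 to 5.65 in WT total RNA (median 5.53) and 6.14 to 6.64 in WT polyribosomal RNA (median 6.35). The groups were apart, and the difference was 0.89 (SE 0.10, adjusted p = 1.79e-05). In Fmr1 KO it was at 5.29 to 5.60 (median 5.52) and 5.84 to 6.45 (median 6.18), a difference of 0.66 (SE 0.10, adjusted p = 1.67e-04). The U2-specific Snrpa1 and Snrpb2, whose products bind each other on U2 snRNA, were at 0.60 and 0.74 in WT and 0.76 and 0.72 in Fmr1 KO. Sf3b6, whose product contacts the branch point adenosine, was at 0.61 in WT and 0.75 in Fmr1 KO. Sf3b4 was at 0.51 and 0.43.

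Sf3b5, for a small SF3B subunit, had the largest fall among the U2 genes. It was at 9.44 to 9.66 in WT total RNA (median 9.56) and 8.15 to 9.42 in WT polyribosomal RNA (median 9.29). The groups did not overlap in WT, but the polyribosomal arrays spread over more than 1 log2 unit. The difference was -0.55 (SE 0.15, adjusted p = 0.00682). In Fmr1 KO, at 9.48 to 9.80 (median 9.60) and 7.90 to 9.48 (median 9.27), where the groups touched, it was -0.62 (SE 0.18, adjusted p = 0.00856), and -0.41 without Fmr1 KO replicate 1. The remaining U2 genes changed call, or sign, with the processing. Sf3b1, the U2 subunit most often mutated in blood cancers, was at 0.18 (SE 0.12, adjusted p = 0.214) in WT and 0.19 (SE 0.11, adjusted p = 0.159) in Fmr1 KO by its brightest probe set. With the median over its 4 tested probe sets it turned to -0.22 (adjusted p = 0.0633) in WT and -0.19 (adjusted p = 0.0895) in Fmr1 KO. Sf3b3 was at 0.21 and 0.15 and Sf3a3 at 0.33 and 0.17, not called in either genotype. Without WT replicate 4, the array farthest from its group, Sf3b1 (0.33, adjusted p = 0.00414), Sf3b3 (0.30, adjusted p = 0.00750) and Sf3a3 (0.49, adjusted p = 0.00487) were higher in WT, and 19 members in all. Sf3b3 and Sf3a3 were also called higher in WT with quantile normalization (adjusted p = 0.0411 and 0.0487) and with arrays centred on the median (0.0384 and 0.0445), and Sf3a3 with the median over its probe sets (0.32, adjusted p = 0.0414). Without Fmr1 KO replicate 5, Sf3b1 (0.29, adjusted p = 0.0258), Sf3a3 (0.33, adjusted p = 0.0294) and Sf3b2 (0.32, adjusted p = 0.0122) were higher in Fmr1 KO, and 18 members in all.

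Sf3b2 and Sf3a1 were called by a small margin. Sf3b2 was at 0.31 (SE 0.11, adjusted p = 0.0243) in WT and 0.23 (SE 0.11, adjusted p = 0.0740) in Fmr1 KO, the 1 member called in WT alone, and the difference between genotypes was -0.08 with an adjusted p of 0.999. Its WT call was lost without WT replicate 1 (0.26, adjusted p = 0.0811), replicate 3 (0.30, adjusted p = 0.0610), replicate 5 (0.30, adjusted p = 0.0503) and replicate 6 (0.26, adjusted p = 0.0838). The median over its probe sets gave a larger WT value (0.50, adjusted p = 0.00167), and limma with a trended, robust prior called it in Fmr1 KO (adjusted p = 0.0360). Sf3a1, the scaffold of SF3A, was at -0.29 (SE 0.11, adjusted p = 0.0401) in WT and -0.24 (SE 0.09, adjusted p = 0.0293) in Fmr1 KO. It lost the WT call without WT replicates 1, 2, 3, 4 or 5, at adjusted p values of 0.0504 to 0.111, with values of -0.32 to -0.20. It lost the Fmr1 KO call without replicates 1, 3, 5 or 6, at adjusted p values of 0.0512 to 0.0931, with values of -0.24 to -0.20. With the median over its probe sets it was not called in either genotype (-0.13, adjusted p = 0.238, and -0.14, adjusted p = 0.253). The WT call was also lost with no filter (adjusted p = 0.0552), quantile normalization (0.0616) and median centring (0.0682), and the Fmr1 KO call with no lysate block (0.0711).

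By brightest probe set, the tri-snRNP genes held the largest rise of all members in WT. They also held a strong fall, of Prpf31, which its other tested probe set did not share. Prpf6, a bridge between U5 and the U4/U6 snRNP, was at 9.06 to 9.61 in WT total RNA (median 9.19) and 9.90 to 10.62 in WT polyribosomal RNA (median 10.46). Replicate 4 was at once the highest WT total and the lowest WT polyribosomal array, with a lysate difference of 0.30, while the highest of the lysates reached 1.44. The difference was 1.18 (SE 0.14, adjusted p = 2.44e-05), or 2.26-fold. In Fmr1 KO, Prpf6 was at 9.25 to 9.53 (median 9.35) and 9.54 to 10.85 (median 10.38), a difference of 0.91 (SE 0.16, adjusted p = 3.48e-04). Its lysate differences there ran from 0.0086 in Fmr1 KO replicate 5, nearly no rise, to 1.60 in replicate 2. Its brightest probe set carries a suffix that marks possible matches to other transcripts, and its other tested probe set was higher too, at 0.48 in WT and 0.46 in Fmr1 KO.

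Prpf4, a partner of Prpf3 on U4/U6, was at 5.15 to 5.48 in WT total RNA (median 5.39) and 5.91 to 6.73 in WT polyribosomal RNA (median 6.33), a difference of 0.94 (SE 0.11, adjusted p = 2.16e-05). In Fmr1 KO it was at 5.10 to 5.54 (median 5.36) and 5.78 to 6.26 (median 6.02), a difference of 0.69 (SE 0.10, adjusted p = 1.09e-04). Prpf3 had differences of -0.04 and -0.03 and was not called. Prpf8, the large core protein of U5 at the catalytic centre, was lower, at -0.43 (SE 0.11) in WT and -0.41 (SE 0.12) in Fmr1 KO.

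Prpf31, needed to join U4/U6 to U5 and known for dominant retinal degeneration, went in opposite directions by probe set. Its brightest probe set was at 7.76 to 8.10 in WT total RNA (median 7.99) and 6.17 to 7.38 in WT polyribosomal RNA (median 7.21), a difference of -0.96 (SE 0.13, adjusted p = 8.57e-05). In Fmr1 KO it was at 7.50 to 8.02 (median 7.93) and 6.15 to 7.54 (median 7.19), with overlap, a difference of -0.81 (SE 0.12, adjusted p = 1.23e-04). The other tested probe set of the gene was higher in WT, at 0.24 (SE 0.10, adjusted p = 0.0446), and at 0.12 (SE 0.09, adjusted p = 0.262) in Fmr1 KO.

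Among the other Prpf genes, Prpf18, Prpf38a and Prpf19 were higher and Prpf4b lower in both genotypes. Prpf18, which acts in the second step of splicing, was at 7.12 to 7.32 in WT total RNA (median 7.25) and 7.76 to 8.23 in WT polyribosomal RNA (median 8.06), a difference of 0.78 (SE 0.10, adjusted p = 3.09e-05). The same gene in Fmr1 KO was at 7.07 to 7.43 (median 7.31) and 7.89 to 8.50 (median 8.20), a difference of 0.87 (SE 0.08, adjusted p = 4.05e-06). Prpf19, the ubiquitin ligase of the complex that activates the spliceosome, was higher by all 4 tested probe sets, at 0.48 to 0.97 in WT. Prpf38a was at 0.51 (SE 0.09) in WT and 0.59 (SE 0.08) in Fmr1 KO. Its other tested probe set was at -0.14 and 0.04 and was not called, and with the median over both the gene was at 0.19 (adjusted p = 0.151) in WT and 0.31 (adjusted p = 0.0134) in Fmr1 KO. Prpf4b, a kinase that acts on the tri-snRNP, was at 9.83 to 10.00 in WT total RNA (median 9.97) and 9.02 to 9.89 in WT polyribosomal RNA (median 9.61), with 1 low total array inside the polyribosomal range. The difference was -0.45 (SE 0.13, adjusted p = 0.0110). In Fmr1 KO it was at 9.91 to 10.10 (median 9.97) and 9.05 to 9.69 (median 9.47), a difference of -0.52 (SE 0.10, adjusted p = 6.52e-04). All 4 tested probe sets of Prpf4b were lower, from -1.37 to -0.33 in WT. Prpf38b was at -0.28 (SE 0.12, adjusted p = 0.0591) in WT and -0.35 (SE 0.15, adjusted p = 0.0555) in Fmr1 KO, not called in either. It was lower in WT without WT replicate 5 (-0.32, adjusted p = 0.0453) or replicate 6 (-0.33, adjusted p = 0.0474), and in Fmr1 KO without replicate 1 (-0.44, adjusted p = 0.0310). It was also called in WT with no lysate block (adjusted p = 0.0451) and in Fmr1 KO with a trended, robust prior (adjusted p = 0.0443).

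Where a gene had several probe sets, they mostly gave the same call. Of 23 genes with 2 or more tested probe sets, 16 in WT and 18 in Fmr1 KO had the same call for all of them, and Prpf31 in WT was the 1 gene with opposite calls. These counts include genes with no probe set called, Prpf38b in both genotypes and Sf3b2 and Sf3a3 in Fmr1 KO. The share over all genes with several probe sets was not counted. Over all tested member probe sets in WT, 35 were higher, 30 lower and 15 not called, against 36.2% higher and 29.1% lower of all probe sets. Sf3b1 stood out among the mixed genes, since its brightest probe set was above 0 and the other 3 were below, at -0.34 to -0.17 in WT. Of these, 2 were lower in each genotype. Snrpg was lower by both of its probe sets, the dimmer one at -2.43 (SE 0.09) in WT and -2.17 (SE 0.12) in Fmr1 KO. The brightest probe set of Snrpg carries a cross-match suffix. Lsm6 was lower by all 3, at -1.71 to -1.45 in WT. Probe sets of one gene can read different parts or forms of its transcripts, and which part each one reads was not used here.

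**Figure D3:**
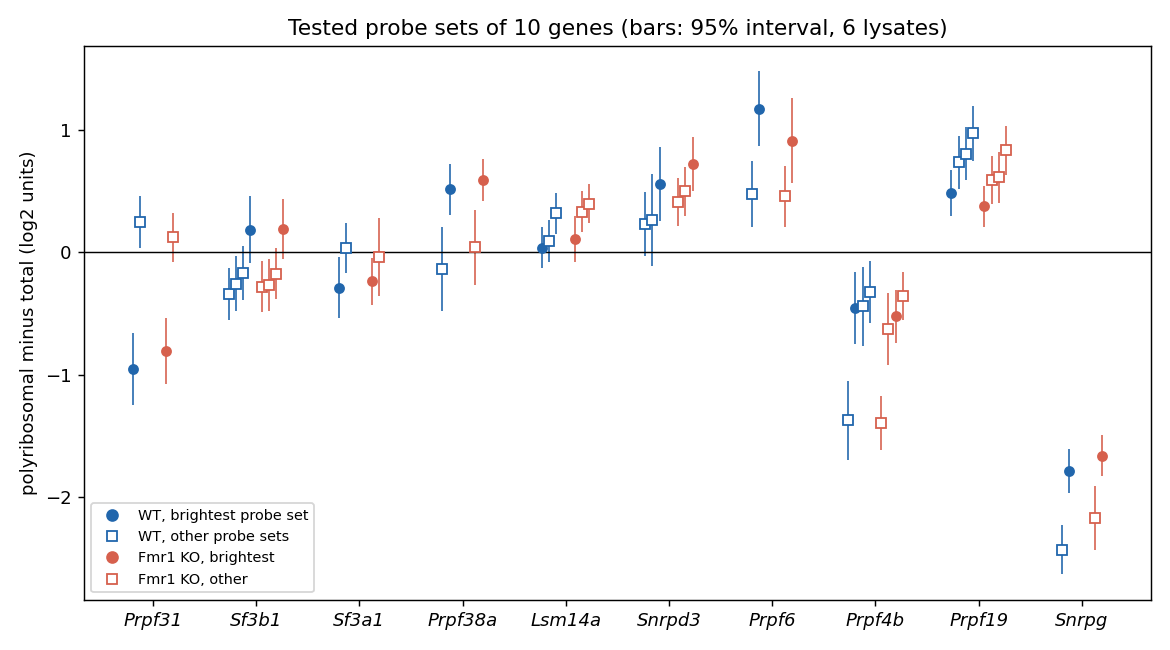
Polyribosomal minus total log2 difference of every tested probe set of 10 genes, with 95% intervals over 6 lysates; filled circles are the brightest probe set of a gene and open squares the others, WT in blue and Fmr1 KO in red. The probe sets of Prpf31 fell on both sides of 0 in WT (-0.96 and 0.24), while those of Prpf19, Prpf4b and Snrpg each stayed on 1 side.

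Probe sets shared with other loci were not members, and their values are given because they complete the rings. The probe set annotated to Lsm5 and Gm7846 was at -2.24 (SE 0.08) in WT, lower in 6 of 6 lysates, further down than the brightest probe set of any member. That annotated to Snrpd1 and Gm14277 was at 0.54 (SE 0.10). The one for Snrpd2 and Gm5848 was at -0.26 (SE 0.13, adjusted p = 0.0863) and was not called. The one for Snrpa, of U1, and a pair of other loci was at 0.60 (SE 0.10). Since these probe sets match several genes, their signal cannot be given to 1 of them. Of the tested probe sets that share Snrpn and Snurf, which lie on 1 transcript, 1 was lower in 6 of 6 lysates in WT (-0.57, SE 0.08, adjusted p = 1.28e-04) and in Fmr1 KO (-0.42, SE 0.08, adjusted p = 6.10e-04). The others were not called in either genotype, with WT values from -0.10 to -0.05 and Fmr1 KO values from -0.09 to -0.03.

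Other genes of the same machinery, from a list written from general knowledge, were more often higher than lower. Of 55 other spliceosome genes tested in WT, 29 were higher and 2 lower, against 37.5% and 28.4% of all genes, with a median difference of 0.24 against 0.09 for all genes. The 2 lower ones were Snrnp25 (-1.74, SE 0.12), of the minor U11/U12 snRNP, and Phf5a (-0.87, SE 0.12), a small subunit of SF3B. In Fmr1 KO, 28 of 54 were higher and 2 lower, against 38.7% and 28.2% of all genes. Of 14 genes for snRNP assembly, 10 were higher and 2 lower in each genotype, against the same shares of all genes. Smn1, for the SMN protein, was at 0.83 (SE 0.13) in WT, and Prmt5, the methyltransferase that modifies Sm proteins, at 0.91 (SE 0.09). The lower pair in WT was Gemin7 (-1.79, SE 0.10), an SMN complex subunit with an Sm-like fold, and Tgs1 (-1.05, SE 0.12), which methylates the cap of snRNAs. Of 8 decapping genes tested in WT, 4 were higher and 2 lower. For so few genes this was near the 37.5% and 28.4% of all genes. The lower ones were Ddx6 (-0.58, SE 0.10) and Dcp2 (-0.58, SE 0.16).

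The next comparisons asked whether loss of Fmr1 changed the level of these mRNAs. No member was called between genotypes. In polyribosomal RNA, 0 of 42 genes passed, against 0% higher and 0.0103% lower among 9664 genes tested, and at an unadjusted p under 0.05 there was 1 member (Lsm6), against 2.22% of all genes. In total RNA, 0 of 42 passed, against 0.0103% higher and 0.031% lower among 9690 genes, and 0 members had an unadjusted p under 0.05, against 5.05% of all genes. In these whole-tissue samples, fewer cells of a type and less RNA per cell cannot be told apart. The members' differences ran from -0.27 to 0.27 in polyribosomal RNA and from -0.16 to 0.16 in total RNA. Their medians were 0.01 and -0.01. The median 95% half-width of a member's difference was 0.299 in polyribosomal and 0.173 in total RNA, and no member's interval reached beyond -0.63 or 0.64 in polyribosomal RNA or beyond -0.38 or 0.34 in total RNA. No member's groups were without overlap in either RNA kind, against 0.0621% (higher) and 0.0414% (lower) of all genes in polyribosomal RNA and 0.114% and 0.206% in total RNA.

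**Figure D4:**
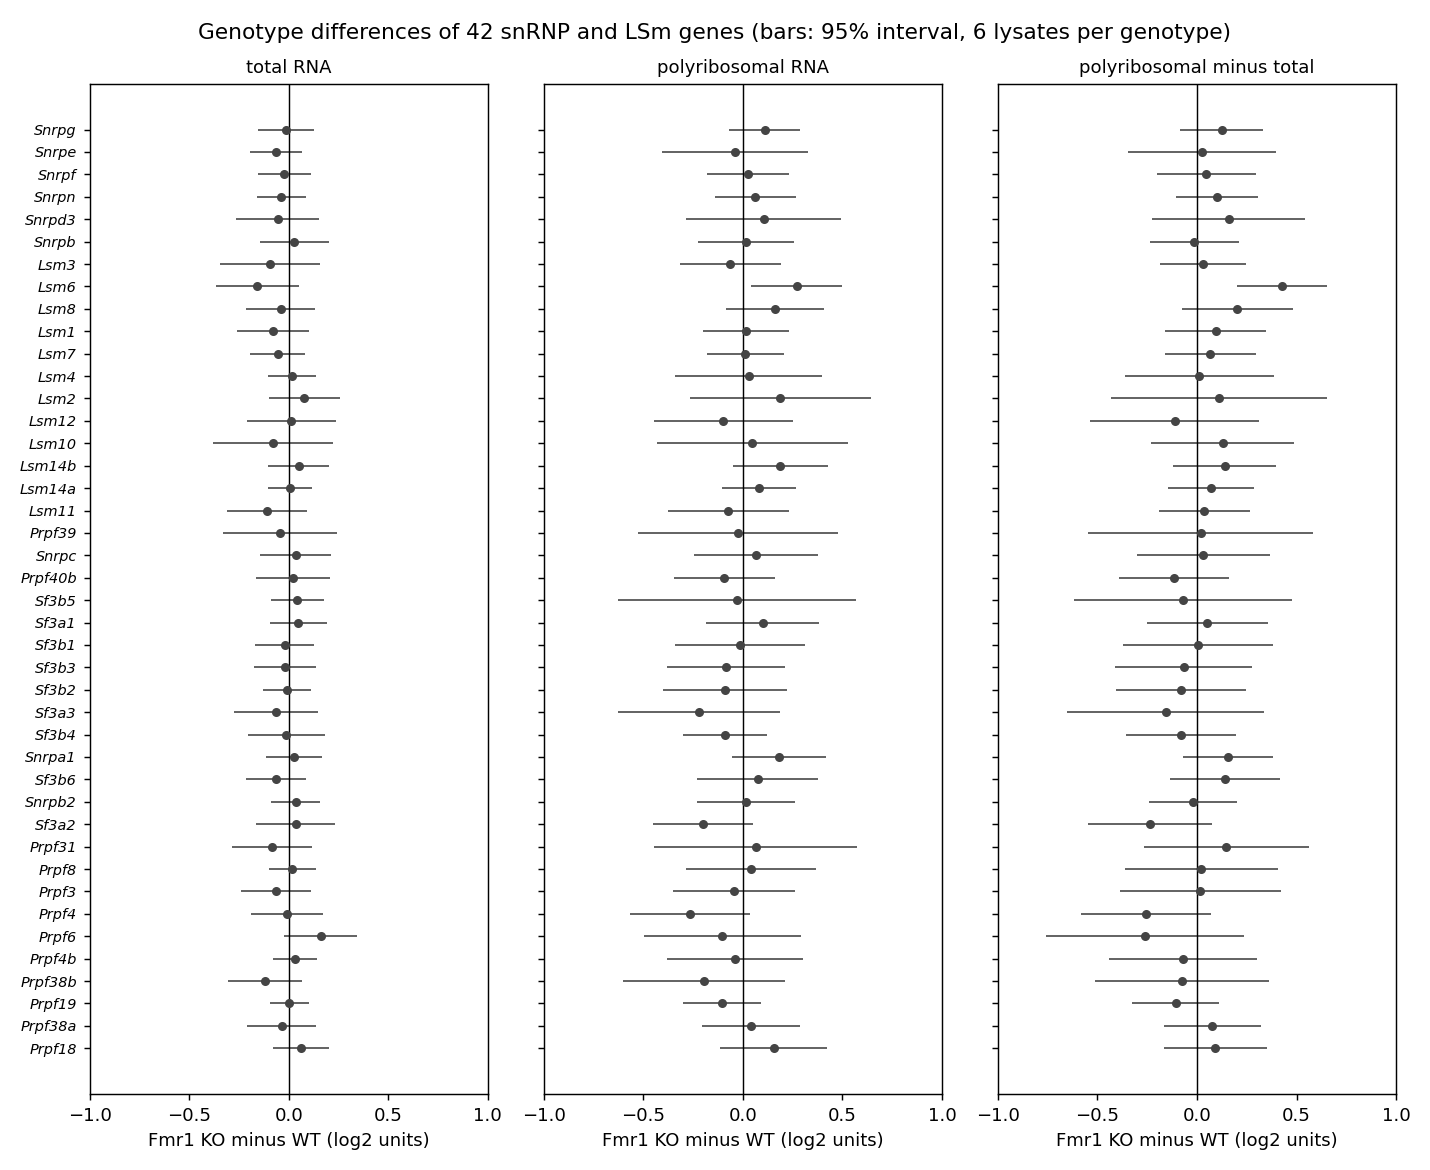
Fmr1 KO minus WT log2 difference of each of the 42 genes in total RNA, in polyribosomal RNA and in the polyribosomal minus total difference, with 95% intervals over 6 lysates per genotype. Most intervals include 0; that of Lsm6 does not in polyribosomal RNA (0.04 to 0.50) or in the polyribosomal minus total difference (0.20 to 0.65), and neither passed after adjustment over all probe sets.

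Lsm6 had the smallest p in polyribosomal RNA. Its mean was 7.80 ± 0.20 (SD, n = 6) in Fmr1 KO and 7.53 ± 0.12 (SD, n = 6) in WT, a difference of 0.27 (SE 0.11, limma unadjusted p = 0.0231, adjusted p = 1.00). The arrays of the genotypes overlapped. In total RNA it was at 8.92 ± 0.17 (SD, n = 6) and 9.08 ± 0.19 (SD, n = 6), a difference of -0.16 (SE 0.10, adjusted p = 0.998). Prpf4 followed in polyribosomal RNA, at -0.27 (SE 0.14, unadjusted p = 0.0781 by limma), and Sf3a2, at -0.20 (SE 0.12, unadjusted p = 0.109 by limma). In total RNA the smallest p values belonged to Prpf6 (0.16, SE 0.09; -0.06 by its probe set without a cross-match mark), Lsm6 and Prpf38b (-0.12, SE 0.09). Prpf38b stood at 8.23 to 8.64 in Fmr1 KO total RNA (median 8.58) and 8.40 to 8.86 in WT total RNA (median 8.66), with most arrays of the groups side by side.

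The last comparison asked whether the step from total to polyribosomal RNA differed between genotypes, over the 12 lysate differences. Again 0 of 42 members passed, as did 0% of the 9955 genes tested. At an unadjusted p under 0.05 there was 1 member, against 2.34% of all genes. This was Lsm6, with lysate differences of -1.77 to -1.34 in WT (median -1.51) and -1.23 to -0.95 in Fmr1 KO (median -1.15). The lysates of the genotypes did not overlap for this 1 member, with a higher difference in Fmr1 KO, as for 0.0502% of all genes (0.0201% in the other direction). The difference between genotypes was 0.43 (SE 0.11, limma unadjusted p = 9.93e-04, adjusted p = 0.999). Its other tested probe sets were at 0.23 (SE 0.16) and 0.22 (SE 0.17), with unadjusted limma p values of 0.162 and 0.216. All 7 LSm ring genes had values above 0 here, from 0.01 to 0.43, as did 27 of the 42 members and 5621 of the 9955 genes. Prpf4 (-0.26, SE 0.15) and Sf3a2 (-0.24, SE 0.15) came next by p. The median 95% half-width of a member was 0.307, without adjustment for the number of probe sets. That half-width is not the size a call after adjustment needed. Lsm6, at 0.43 (SE 0.11), lay beyond it and was still not called.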

How the data were processed

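The authors made the deposited values with GCRMA, per the submitters' processing notes, which corrects background, normalizes between arrays and summarizes probe sets. As deposited, values are in log2 units, judged from their range. Its version, and whether all 24 arrays were normalized together, are not given in the sources used here. Per the labels, 10 µg of RNA went into each labelling. The number of arrays limits the precision.

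The test was limma (version 3.58.1; R 4.3.3), two-sided, with lmFit and eBayes. It was fitted over all probe sets that reached log2 4 in 6 or more arrays of a comparison, with Benjamini-Hochberg adjustment over the same probe sets and a threshold of 0.05. Polyribosomal against total RNA used the lysate as a block; genotypes were compared without one, and their interaction as limma on the 12 lysate differences. For WT and Fmr1 KO arrays of the same number, the correlation of residuals lay between 0.133 and 0.532 (total RNA). The polyribosomal arrays gave values between -0.14 and 0.625. Within lysates the WT range was 0.021 to 0.525 and the Fmr1 KO range 0.156 to 0.474. Without values for arrays of different numbers, these correlations cannot decide whether equal numbers mark pairs of the genotypes. The main genotype tests therefore treated them as unpaired, and the replicate block was run as an alternative. The array annotation gave several symbols for 932 probe sets and none for 9160. All 42 members matched a RefSeq gene ID. Members and lists were chosen with earlier results of these data known. All members may be named; full values are given for the largest rise and fall of each role in WT, the 3 smallest p values of each genotype comparison, Snrpb and Snrpn. Scripts were tested on simulated data. Alternatives covered the filter, scaling, eBayes options, choice of probe set, blocks and each replicate left out. Protein length was not analysed here. Figures used matplotlib 3.10.9 in Python 3.11.15.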

Additional observations from a re-analysis of the deposited data

Results flagged for a closer look

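The log2 signals of the 42 genes were searched, group by group, for 1 array far from the other 5, and 15 of 168 groups had one by Dixon's 95% limit; chance alone gives about 1 in 20. WT polyribosomal replicate 4, the array farthest from its group over all probe sets, was the lowest for Prpf6 (9.90, next 10.40), Prpf8 (7.79, next 8.32) and Sf3b3 (7.69, next 8.04) and the highest for Snrpa1 (11.04, next 10.76). The total array of the same lysate was the highest for Prpf6 (9.61, next 9.22). Fmr1 KO polyribosomal replicate 5, the array farthest from its group, was the highest for Lsm1 (8.32, next 7.97) and Sf3b6 (12.59, next 12.08) and the lowest for Sf3b1 (10.58, next 11.04). WT polyribosomal replicate 2 was the lowest for Snrpb2 (10.37, next 10.66). In WT total RNA, replicate 3 was the lowest for Lsm4 (6.65, next 6.76) and Sf3b3 (7.57, next 7.85), and replicate 1 for Prpf4b (9.83, next 9.96). In Fmr1 KO total RNA, replicate 1 was the lowest for Prpf31 (7.50, next 7.85), replicate 2 for Sf3b1 (10.55, next 10.82) and replicate 3 for Prpf38b (8.23, next 8.53). The calls of Prpf6, Prpf8, Snrpa1, Snrpb2, Lsm1, Lsm4, Prpf4b, Prpf31 and Sf3b6 in polyribosomal against total RNA were kept with each replicate left out in turn, in both genotypes.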

How the results depend on the processing

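No called value changed direction under the alternatives run, but some values that were not called did. With the median over probe sets Sf3b1 turned to -0.22 in WT and -0.19 in Fmr1 KO. With quantile normalization Prpf3 turned to 0.0113 in WT, with median centring Lsm14b turned to 0.0125 in Fmr1 KO, and without cross-matching probe sets the genotype difference of Prpf6 in total RNA turned to -0.0642. Leaving out 1 replicate, the WT values ran from -0.133 to 0.0589 for Prpf3 and from -0.0361 to 0.0415 for Snrpn. The Fmr1 KO values ran from -0.122 to 0.119 for Prpf3 and from -0.0464 to 0.0277 for Lsm14b. With a stricter filter of log2 at least 6, the median of the members in polyribosomal minus total RNA of Fmr1 KO was -0.12 in place of 0.05, over fewer members. Leaving out 1 replicate at a time gave 15 to 19 higher and 16 to 19 lower members in WT, with medians of -0.06 to 0.0043, and 15 to 18 higher and 16 to 18 lower in Fmr1 KO, with medians of -0.0016 to 0.10. With no replicate block, 16 were higher and 19 lower in WT and 15 higher and 17 lower in Fmr1 KO. With the replicate block, 0 of 42 members were called between genotypes, as without it. Over all probe sets in total RNA, 0 were higher and 4 lower with that block, against 1 and 6 without it. Single-gene calls of polyribosomal against total RNA kept their side of the threshold and direction in 586 gene-by-setting checks in WT and were lost in 19 and gained in 13; in Fmr1 KO these were 596, 11 and 8. The comparison with coding length was not run, for want of protein lengths here. Signal near the floor of 4 limits Prpf3, Lsm12 and Prpf40b.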
